A study of Mus musculus with 16 samples.

Results

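The genes described here are 34 mouse genes of the red cell membrane and its enzymes, chosen by name: membrane skeleton proteins, blood group and other surface proteins, transporters, enzymes, and a few haem partners and nuclear factors of late erythroid cells. Of these, 33 were found by symbol among the 55487 genes of the count table, and all 33 passed the filter on low counts that left 14435 genes for testing. Ahsp, which stabilises free alpha globin, was not matched and is not analysed here. The RNA came from leukaemia cells of mice, which carried the fusion oncogene CBFB::MYH11 and GFP and, per the series description, a doxycycline-inducible shRNA (a short hairpin RNA that silences its target) against MYH11. These cells had been transplanted into congenic recipients and were sorted for GFP before RNA sequencing. Bone marrow doxycycline (n = 3) and bone marrow control (n = 3) libraries came from mice given 3 mg/ml doxycycline in 5% sucrose water, or 5% sucrose water alone, for 7 days after engraftment. Spleen doxycycline (n = 3) and spleen control (n = 3) libraries came from the same treatments. Secondary disease (n = 4) libraries came from spleens of a separate cohort, labelled as doxycycline-treated and kept until signs of fatal disease, whose time on doxycycline the labels do not give. All 5 groups carried the fusion. The labels of the control libraries name the fusion without repeating the shRNA, and no label states how many animals or clones stood behind a library.

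A red cell keeps its shape through a mesh of spectrin and short actin filaments under the membrane, which ankyrin and its partners tie to the anion exchanger band 3 and to the Rh and Kell surface complexes. Its metabolism runs on glycolysis, with a side branch that makes bisphosphoglycerate to tune oxygen release, and on peroxide-removing enzymes that protect haemoglobin. In mouse bone marrow and spleen these genes are switched on in erythroblasts, many of them under the transcription factors GATA1 and KLF1.

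After 7 days of doxycycline in bone marrow, 14 of the 33 genes rose and 1 fell, where 3.96% of all genes tested rose and 2.61% fell (edgeR quasi-likelihood test, adjusted p under 0.05 after Benjamini-Hochberg adjustment over all genes tested). The 14 that rose were Ank1, Epb42, Add2, Slc4a1, Rhag, Kel, Cldn13, Tspan33, Pklr, Bpgm, Blvrb, Prdx2, Trim10 and Fhdc1, and the gene that fell was Slc14a1, a urea transporter. In spleen, 5 rose (Rhd, Bpgm, Blvrb, Trim10 and Fhdc1) and 0 fell, where 0.568% of all genes tested rose and 0.173% fell. The count of 0 that fell was also 0 at an unadjusted p under 0.05 (share of all genes not given here), with DESeq2 (1.36% of all genes tested) and with limma-voom (0.492%). Bpgm, Blvrb, Trim10 and Fhdc1 rose in both tissues. The median log2 fold change of the 33 genes was 1.20 in bone marrow and 1.24 in spleen, beside medians of -0.02 and 0.02 over all genes tested.

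Sorted by time, 15 of the 33 genes were early, meaning called higher at 7 days in at least 1 tissue: 4 in both, 10 with a call in bone marrow and none in spleen, and 1, Rhd, with a call in spleen and none in bone marrow (adjusted p = 0.0544 there). A call missed in the other tissue is no test of a difference between tissues, and in that test 0 of the 33 genes were called. The late class, meaning called higher in secondary disease against spleen control without an early call, held 0 genes. An early call could arise in either tissue and a late call in spleen alone, where 0.748% of all genes tested rose, so a late count of 0 says little. Secondary disease was also a separate cohort, so time cannot be told apart from cohort and disease state. The other 18 were called higher in no comparison with controls. Secondary disease against spleen control gave 0 genes that rose and 0 that fell, beside 0.748% and 1.28% of all genes tested. At an unadjusted p under 0.05 the counts were 4 higher and 5 lower. The share of all genes at that threshold is not given here, so these counts cannot be set against it. DESeq2 called 3 higher and 2 lower there, beside 2.43% and 2.81% of all genes tested, and limma-voom 0 higher and 1 lower, beside 0.596% and 1.82%. Against the 7-day spleen doxycycline libraries, secondary disease had 0 genes higher and 6 lower (Tspan33, Atp2b4, Rhd, Kel, Bpgm and Trim10), where 0.222% of all genes tested were higher and 0.707% lower. That count of 6 was 0 without secondary disease replicate 1, 2 or 3 (0 to 0.0348% of all genes tested) and 9 without replicate 4 (2.96%). It was 22 without spleen doxycycline replicate 1 (4.91%), 10 without its replicate 3 (2.23%) and 1 to 4 without any other library (0.134 to 0.426%).

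How many genes were called depended on single libraries and settings. For each gene, 1 estimate of spread was shared by all 5 groups, whose libraries varied to unlike degrees. The standard errors and p-values therefore do not measure the spread of the compared libraries alone. Of 24 alternatives, the bone marrow calls held in 24 for Slc14a1, 23 for Bpgm, 21 for Blvrb, 20 for Kel and Fhdc1, 18 for Cldn13, 17 for Trim10, 16 for Prdx2, Rhag and Add2, 14 for Slc4a1 and Ank1, 11 for Tspan33 and Epb42, and 10 for Pklr. Genes not called there passed as higher in 9 for Rhd, 8 for Dmtn, 7 for Epb41, 5 for Abcb10 and 4 for Cat. Xk, Ermap and Sox6 passed in 2, and Sptb, Icam4, Car1 and Car2 in 1. Tmod1, Hemgn, Trim58, Gypc, Atp2b4 and Aqp1 passed in 0. DESeq2 called 17 genes higher in bone marrow and 17 in spleen, where 7.67% and 3.47% of all genes tested were, and limma-voom 11 and 2, where 4.34% and 0.201% were. With no filter on low counts, with a replicate block and in a fit of only the groups compared, the bone marrow counts were 5, 18 and 25, beside 0.84, 7.5 and 17.9% of all genes tested, and the spleen counts 0, 9 and 0, beside 0.0318, 1.5 and 0%. In secondary disease against spleen doxycycline DESeq2 called 18 lower (3.73% of all genes tested) and limma-voom 1 (0.229%). The spleen calls held in 9 for Bpgm, 8 for Blvrb and 7 for Rhd, Fhdc1 and Trim10, and all 5 were lost without spleen doxycycline replicate 2 or 3. In bone marrow, leaving out any 1 of the 6 libraries compared left 0 to 4 genes called higher, beside 0.134 to 1.05% of all genes tested, with 0 without control replicate 2. Leaving out a spleen control left 8 or 9, beside 2.19 to 2.55%. In 27 of the 33 genes every bone marrow doxycycline library was above every bone marrow control library, against 23.1% of all genes tested. In spleen, 13 of the 33 genes had every doxycycline library above every control library, where 9.34% of all genes tested did. The spleen doxycycline libraries stood apart from each other. The median of the 33 genes, as log2 over the mean of the spleen controls, was 0.03 in replicate 1, 1.94 in replicate 2 and 0.82 in replicate 3, while the bone marrow doxycycline libraries had 1.11, 1.21 and 1.34 over their own controls. Without spleen doxycycline replicate 1 the spleen count was 21 genes, beside 4.5% of all genes tested, and without secondary disease replicate 4 it was 14, beside 3.23%. It was 0 without spleen doxycycline replicate 2 or 3, 0 without any 1 of the spleen controls or bone marrow libraries or secondary disease replicate 2 or 3, and 1 without secondary disease replicate 1, beside at most 0.187% of all genes tested in each. Secondary disease replicate 4, the shallowest library with 12.26 M expected counts against 21.84 to 39.42 M in the others, had a median of -0.56 over the spleen controls, against 0.21, 0.28 and 0.22 in replicates 1 to 3. With spleen doxycycline replicate 1 and secondary disease replicate 4 both left out, a choice made after the data were seen, 23 genes rose in bone marrow and 25 in spleen, beside 13.9% and 11.9% of all genes tested.

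**Figure D1:**
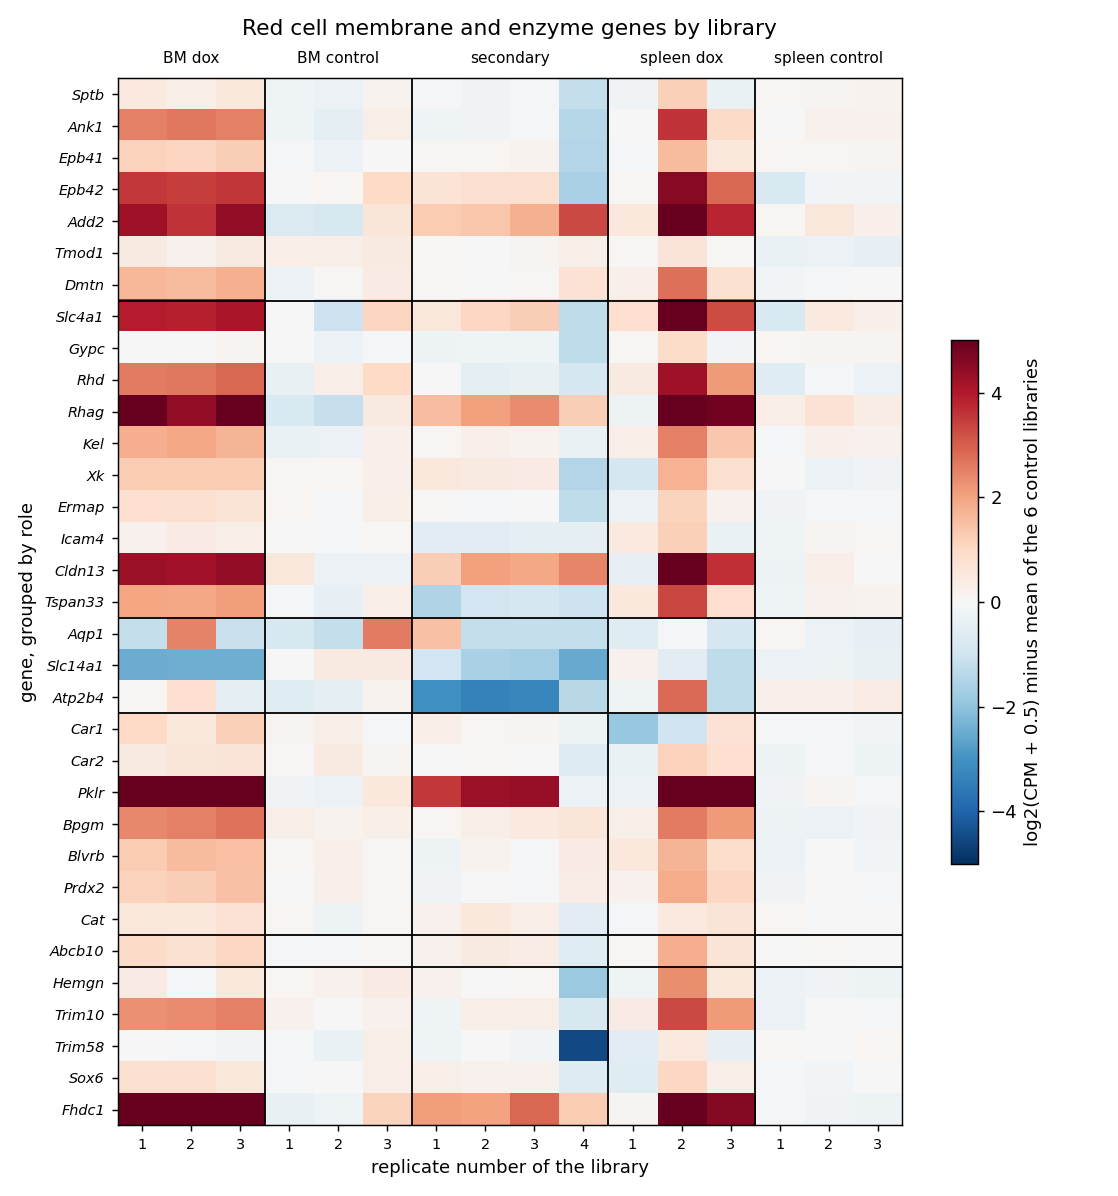
Each row is 1 of the 33 genes, ordered by role, and each column 1 of the 16 libraries; the colour is log2(CPM + 0.5) minus the mean of the 6 control libraries, and differences beyond 5 in either direction take the end colour. The bone marrow doxycycline libraries resemble each other, while of the spleen doxycycline libraries replicate 2 is high in most rows, replicate 3 in fewer and replicate 1 is close to the controls.

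The haemoglobin genes, counted as a check of erythroid RNA, were high in the same libraries. They took 4.5, 5.6 and 5.4% of all counts in bone marrow doxycycline, against 0.278, 0.212 and 0.416% in bone marrow control. In spleen they took 0.385, 0.613, 0.649 and 0.45% in secondary disease, 0.527, 7.15 and 3.73% in spleen doxycycline, and 0.282, 0.468 and 0.412% in spleen control. The 33 genes together took 1.54 to 1.6% of counts in bone marrow doxycycline, against 0.74 to 0.901% in bone marrow control. In these bulk samples, fewer cells of a type and less RNA per cell cannot be told apart. The target of the shRNA could be checked only in part: mouse Myh11 was near 0 in every library, at 0 to 0.352 CPM. Mouse Cbfb stood at 92.5 ± 3.85 CPM in bone marrow doxycycline and 128 ± 9.94 CPM in bone marrow control (SD, n = 3 each), and it was 117 ± 30.3 CPM in secondary disease (n = 4), 96.9 ± 36.9 CPM in spleen doxycycline and 133 ± 10.2 CPM in spleen control (n = 3 each). Single libraries set much of this: spleen doxycycline had 117.5, 54.25 and 118.9 CPM, and secondary disease 72.16 CPM in replicate 4 and 126.7 to 136.8 CPM in the others. A count per gene does not tell whether Cbfb reads came from the fusion. CPM here and below is the count as a share of the library total, scaled by the TMM method, which serves to compare a gene between libraries.

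The 4 genes that rose in both tissues and 4 surface or enzyme genes with both a call and a GATA match close to the start are shown by their promoter sequence, since GATA and KLF factors are known activators of this class. Among the surface and enzyme genes shown, Kel, Pklr and Rhag were called in bone marrow and Rhd in spleen. RefSeq promoter windows (GRCm38.p6; 250 bases before to 50 bases after an annotated start) were matched by symbol for 25 of the 33 genes, with 35 windows among the 32851 windows of the table. Both strands were searched for the GATA letters (NGATAN with A or T first and A or G last, such as AGATAA), for the KLF letters CCNCNCCC and for the E-box letters CANNTG, and matches of one motif can share letters with a match of the same or another motif. GATA letters were in 19 of the 35 windows (54.3%) and in 29.8% of all windows. KLF letters were in 54.3% of the 35 and 49.5% of all, and E-box letters in 62.9% of the 35 and 72.3% of all. Within the last 60 bases before a start, GATA letters were in 8 of the 35 windows (22.9%) and in 5.96% of all windows; the genes were Fhdc1, Hemgn, Icam4, Kel, Pklr, Rhag, Rhd and Sox6. Some genes have several windows, which may share sequence and are not independent, and Sox6 alone has 6 of the 35. Hemgn, Icam4 and Sox6 have such a match too, but were called higher in no comparison with controls and are not printed. Pklr has another window, with 0 GATA matches. The 60 bases before the start follow for 4 genes with a call at 7 days, selected after the matches were seen, with the GATA letters (or their reverse complement) in capitals:
Pklr, chr3:89136082-89136141, plus strand: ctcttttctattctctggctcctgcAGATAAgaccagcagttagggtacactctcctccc
Rhd, chr4:134864476-134864535, plus strand: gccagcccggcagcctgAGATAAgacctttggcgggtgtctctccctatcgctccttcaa
Kel, chr6:41704326-41704385, minus strand: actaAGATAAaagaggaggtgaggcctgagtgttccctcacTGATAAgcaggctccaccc
Rhag, chr17:40811089-40811148, plus strand: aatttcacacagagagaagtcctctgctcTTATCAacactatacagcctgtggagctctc
Counted backwards from the start, so that the last base printed is -1, the match begins at -35 in Pklr, -43 in Rhd and -31 in Rhag, and Kel has a pair of matches.

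For the 4 genes that rose in both tissues, 1 window each follows, in which capitals mark GATA letters and KLF letters on either strand. The table holds another window for Fhdc1, with 0 GATA matches and 1 KLF match, and another for Blvrb, with 1 GATA match and 0 KLF matches.
Trim10, chr17:36869324-36869623, plus strand: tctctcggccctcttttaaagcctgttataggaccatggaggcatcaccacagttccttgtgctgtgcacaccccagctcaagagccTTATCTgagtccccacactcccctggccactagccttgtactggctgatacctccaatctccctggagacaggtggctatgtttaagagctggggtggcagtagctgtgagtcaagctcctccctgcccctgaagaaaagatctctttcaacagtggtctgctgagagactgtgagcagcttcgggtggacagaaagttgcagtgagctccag
Fhdc1, chr3:84479442-84479741, minus strand: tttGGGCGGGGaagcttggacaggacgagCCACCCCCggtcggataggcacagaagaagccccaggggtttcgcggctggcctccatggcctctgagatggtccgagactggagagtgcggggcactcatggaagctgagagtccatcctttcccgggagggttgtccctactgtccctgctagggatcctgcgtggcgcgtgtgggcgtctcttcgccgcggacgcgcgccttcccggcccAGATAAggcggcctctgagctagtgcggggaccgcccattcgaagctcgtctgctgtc
Bpgm, chr6:34476106-34476405, plus strand: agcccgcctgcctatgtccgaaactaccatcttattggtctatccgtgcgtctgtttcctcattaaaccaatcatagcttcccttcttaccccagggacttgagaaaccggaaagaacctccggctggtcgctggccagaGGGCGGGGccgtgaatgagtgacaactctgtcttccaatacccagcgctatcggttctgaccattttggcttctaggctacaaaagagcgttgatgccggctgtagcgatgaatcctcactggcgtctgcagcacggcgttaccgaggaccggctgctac
Blvrb, chr7:27447728-27448027, plus strand: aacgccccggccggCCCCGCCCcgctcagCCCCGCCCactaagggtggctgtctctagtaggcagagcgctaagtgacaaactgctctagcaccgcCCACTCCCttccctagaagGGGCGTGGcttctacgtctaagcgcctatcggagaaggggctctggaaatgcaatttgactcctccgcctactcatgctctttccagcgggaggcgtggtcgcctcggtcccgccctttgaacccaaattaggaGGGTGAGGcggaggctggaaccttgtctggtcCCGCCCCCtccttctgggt
The Trim10 window has 1 GATA match, beginning at -163, and 0 KLF matches, and the Fhdc1 window has 1 GATA match at -8 and 2 KLF matches. Bpgm has 0 GATA matches and 1 KLF match in its window, and Blvrb has 0 and 6. The matches are letters in a window, not sites shown to be bound. Of the 12 early genes with a window, 15 windows in all, 9 windows held GATA letters, as did 10 of 20 windows of the 13 other genes.

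Of the 7 membrane skeleton genes, Ank1, Epb42 and Add2 rose in bone marrow. Ank1 (ENSMUSG00000031543, GRCm38 chr8:22974844-23150497, plus strand), the ankyrin that ties spectrin to band 3, averaged 1408 ± 72.4 CPM in bone marrow doxycycline and 220.5 ± 62.6 CPM in bone marrow control (SD, n = 3 each), with a log2 fold change of 2.67 ± 0.68 (SE) and an adjusted p of 0.0341. Epb42, which binds both band 3 and ankyrin, averaged 174 ± 7.83 CPM against 19.8 ± 8.35 CPM (3.14 ± 0.82; adjusted p = 0.0376). Add2, the beta adducin that caps actin and recruits spectrin, averaged 103 ± 28.2 CPM against 4.86 ± 3.17 CPM (4.41 ± 1.07; adjusted p = 0.0288). In spleen none of them passed (adjusted p = 0.149, 0.0581 and 0.0591 in this order).

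Sptb, the erythroid beta spectrin, was already abundant without doxycycline, at 1600 ± 99.7 CPM in bone marrow doxycycline and 1085 ± 192 CPM in bone marrow control, and it did not pass the test (0.56 ± 0.36; adjusted p = 0.411). On the TPM scale (a level scaled by transcript length), Sptb had 216 ± 17.2 TPM in bone marrow doxycycline and 170.4 ± 48.8 TPM in bone marrow control. Epb41, which strengthens the junction of spectrin and actin, and Dmtn, an actin-bundling protein, had log2 fold changes of 1.26 ± 0.40 and 1.58 ± 0.48 with adjusted p of 0.0753 and 0.0626. Every bone marrow doxycycline library lay above every bone marrow control library in Sptb, Epb41 and Dmtn, though none passed. They passed in 1, 7 and 8 of 24 alternatives in this order. Exons of Sptb overlap Plekhg3, and exons of Epb41 overlap Gm10300, each on the opposite strand, and the sources used here do not say whether counting kept strand.

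Tmod1 (ENSMUSG00000028328, GRCm38 chr4:46038935-46116032, plus strand), the tropomodulin that caps the slow-growing end of actin filaments, was the skeleton gene with the least difference in bone marrow. It had 107, 91.5 and 105 CPM in bone marrow doxycycline, against 97.2, 94.8 and 108 CPM in bone marrow control. These values overlapped, and the log2 fold change was 0.02 ± 0.15 (adjusted p = 0.969). In spleen Tmod1 had 81.3, 76.6, 86.5 and 97 CPM in secondary disease, 81.9, 121 and 82.1 CPM in spleen doxycycline and 62.3, 63 and 58 CPM in spleen control. Every doxycycline-treated spleen library lay above every spleen control, in both groups. The log2 fold changes were 0.48 ± 0.15 for secondary disease (adjusted p = 0.122) and 0.64 ± 0.15 for spleen doxycycline (adjusted p = 0.0693), and neither passed. The first passed in 2 of 24 alternatives, DESeq2 and the fit without spleen doxycycline replicate 2. The second passed in 4 of 24, among them DESeq2 and the fits without spleen doxycycline replicate 1 or secondary disease replicate 4. Exons of Tmod1 overlap Tstd2 on the opposite strand.

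Of the 10 surface genes, Slc4a1, Rhag, Kel, Cldn13 and Tspan33 rose in bone marrow and Rhd in spleen. Slc4a1 (ENSMUSG00000006574, GRCm38 chr11:102348824-102366203, minus strand), which encodes band 3, the chloride-bicarbonate exchanger, averaged 1655 ± 128 CPM in bone marrow doxycycline and 127 ± 87.9 CPM in bone marrow control (3.71 ± 0.95; adjusted p = 0.0353). Rhag, the Rh-associated channel that carries ammonia, averaged 108 ± 25.8 CPM against 2.4 ± 1.81 CPM (5.50 ± 1.17; adjusted p = 0.0176). In these 2 genes each bone marrow doxycycline library was above each control. In spleen neither passed (adjusted p = 0.0628 and 0.053), and both had 1 doxycycline library far above the others: Slc4a1 had 192, 4965 and 1005 CPM and Rhag 2.5, 409 and 103 CPM in spleen doxycycline replicates 1 to 3, against 61.8, 149 and 124 and 4.09, 5.46 and 4.22 CPM in spleen control. In spleen Slc4a1 passed in 5 and Rhag in 4 of 24 alternatives. For both these included DESeq2 and the fits without spleen doxycycline replicate 1 or secondary disease replicate 4. In secondary disease, Slc4a1 had 156, 215, 247 and 43.3 CPM, which overlapped the spleen controls, and Rhag had 10.1, 14.6, 17.9 and 8.07 CPM, all above them (adjusted p = 0.828 and 0.539).

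Rhd (ENSMUSG00000028825, GRCm38 chr4:134864536-134896172, plus strand), the mouse homologue of the Rh antigen protein, had 113, 114 and 135 CPM in bone marrow doxycycline, against 14, 22.5 and 36.8 CPM in bone marrow control. The groups did not overlap, but the difference missed the threshold (2.30 ± 0.67; adjusted p = 0.0544) and passed it in 9 of 24 alternatives. In spleen it had 18.3, 13.2, 13.6 and 9.54 CPM in secondary disease, 24.5, 349.7 and 79.6 CPM in spleen doxycycline and 11.6, 17.1 and 14.7 CPM in spleen control. Rhd rose in spleen doxycycline against spleen control (3.39 ± 0.70; adjusted p = 0.0465) with all 3 libraries above the controls, and secondary disease was lower than spleen doxycycline (-3.46 ± 0.63; adjusted p = 0.0265; called in 13 of 24 alternatives). Against spleen control, secondary disease overlapped the controls.

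Kel (ENSMUSG00000029866, GRCm38 chr6:41686330-41704339, minus strand), the Kell metalloprotease, had 377, 409.7 and 345 CPM in bone marrow doxycycline, against 85.2, 86.5 and 125 CPM in bone marrow control. Each doxycycline library was far above each control, and Kel rose (1.93 ± 0.39; adjusted p = 0.0145). In spleen Kel had 113, 126, 119 and 83.2 CPM in secondary disease, 134, 613 and 268 CPM in spleen doxycycline and 99.1, 126 and 123 CPM in spleen control. The 3 spleen doxycycline libraries were above the controls without passing (1.54 ± 0.39; adjusted p = 0.0803). The difference passed in 4 of 24 alternatives, among them DESeq2 and the fits without spleen doxycycline replicate 1 or secondary disease replicate 4. Secondary disease was lower than spleen doxycycline (-1.62 ± 0.35; adjusted p = 0.0489), a call held in 6 of 24 alternatives. Xk, the membrane protein to which Kell is bound, did not pass in either tissue (1.12 ± 0.52 in bone marrow, adjusted p = 0.225; 1.06 ± 0.52 in spleen, adjusted p = 0.438).

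Cldn13 (ENSMUSG00000008843, GRCm38 chr5:134914249-134915526, minus strand), a claudin of mouse erythroid cells, had 112, 109 and 126 CPM in bone marrow doxycycline, against 8.16, 4.32 and 4.26 CPM in bone marrow control, and rose (4.37 ± 0.90; adjusted p = 0.0151). The spleen libraries had 13.4, 23.9, 22.2 and 31.2 CPM in secondary disease, 3.95, 211 and 73.2 CPM in spleen doxycycline and 4.44, 6.83 and 5.35 CPM in spleen control. All 4 secondary disease libraries, replicate 4 included, lay above all 3 controls, while spleen doxycycline replicate 1 lay below them. Neither comparison with spleen control passed (2.03 ± 0.79, adjusted p = 0.23 for secondary disease; 4.11 ± 0.89, adjusted p = 0.0508 for spleen doxycycline). Without spleen doxycycline replicate 1, Cldn13 was called higher in secondary disease and in spleen doxycycline, and it was called in 3 and 4 of 24 alternatives in this order.

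Tspan33 (ENSMUSG00000001763, GRCm38 chr6:29694222-29718559, plus strand), a tetraspanin of erythroblasts, stood on opposite sides of the spleen controls at 7 days and in secondary disease. It had 162, 157 and 174 CPM in bone marrow doxycycline, against 37.8, 30.9 and 51.6 CPM in bone marrow control, and rose (2.04 ± 0.55; adjusted p = 0.0414). Its spleen values were 14.2, 20.6, 21.7 and 19.3 CPM in secondary disease, 59.4, 416 and 73.2 CPM in spleen doxycycline and 34.8, 47.3 and 45.5 CPM in spleen control. All 3 spleen doxycycline libraries were above, and all 4 secondary disease libraries below, every spleen control. Secondary disease was lower than spleen doxycycline (-3.27 ± 0.52; adjusted p = 0.0201), in 20 of 24 alternatives. Its difference from spleen control did not pass (-1.17 ± 0.50; adjusted p = 0.275). It passed in 2 of 24 alternatives, in a fit of only the groups compared and without spleen doxycycline replicate 2. Nor did spleen doxycycline against spleen control pass (2.10 ± 0.55; adjusted p = 0.0918), which passed in 3 of 24 alternatives, among them DESeq2 and the fit without spleen doxycycline replicate 1.

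The remaining surface genes did not pass in any comparison. Gypc, glycophorin C, which anchors the skeleton junctions, averaged 164 ± 10.3 CPM in bone marrow doxycycline and 147 ± 13.3 CPM in bone marrow control. Ermap, a butyrophilin-like erythroid protein, averaged 1235 ± 69 and 785 ± 103 CPM in the same groups, and Icam4, an adhesion protein of erythroblasts, 39.4 ± 2.83 and 31.8 ± 1.38 CPM. In secondary disease Gypc and Icam4 were below every spleen control in all 4 libraries, with adjusted p of 0.322 and 0.324.

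**Figure D2:**
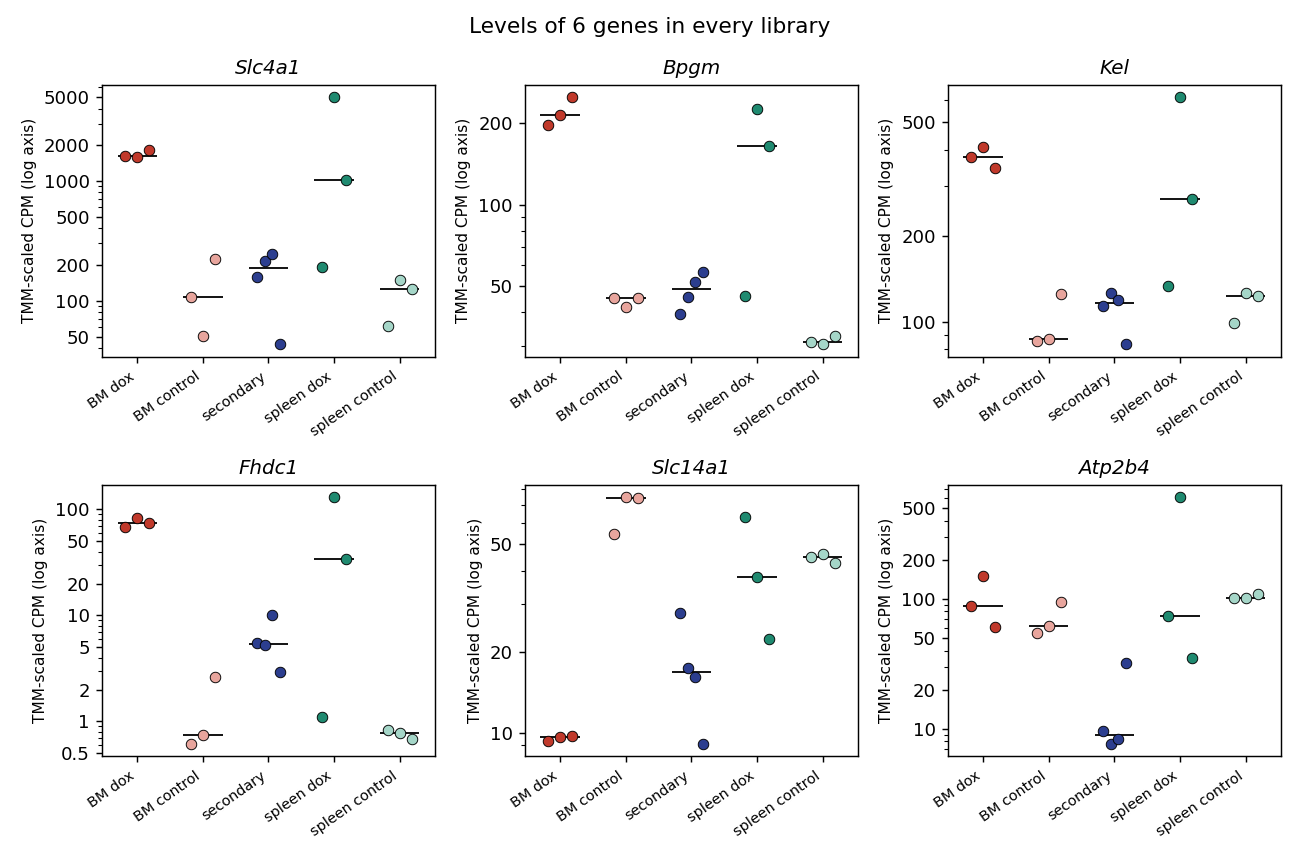
Points are single libraries and bars the medians of TMM-scaled CPM, on log axes, for Slc4a1, Bpgm, Kel, Fhdc1, Slc14a1 and Atp2b4 in the 5 groups. Slc4a1, Bpgm, Kel and Fhdc1 are high in bone marrow doxycycline and in spleen doxycycline replicates 2 and 3, Slc14a1 is low in bone marrow doxycycline at 9.34 to 9.75 CPM, and Atp2b4 is low in secondary disease.

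Of the 3 transport genes, 0 rose and Slc14a1 fell in bone marrow. Slc14a1 (ENSMUSG00000059336, GRCm38 chr18:78100091-78142119, minus strand), the red cell urea transporter that carries the Kidd antigens in humans, had 9.34, 9.65 and 9.75 CPM in bone marrow doxycycline, against 54.7, 74.9 and 74.6 CPM in bone marrow control. The 3 doxycycline libraries agreed closely and lay far below the controls, and Slc14a1 fell by 2.83 on the log2 scale (SE 0.38; adjusted p = 0.00341). Slc14a1 was 3.03% of the 33 genes, beside the 2.61% of all genes tested that fell. In spleen it had 27.9, 17.5, 16.2 and 9.11 CPM in secondary disease, 63.1, 38 and 22.3 CPM in spleen doxycycline and 44.9, 46.2 and 42.7 CPM in spleen control. Spleen doxycycline straddled the controls (-0.12 ± 0.35; adjusted p = 0.951), while all 4 secondary disease libraries lay below them (-1.33 ± 0.33; adjusted p = 0.0561). The secondary disease difference passed in 6 of 24 alternatives. Among them were DESeq2, limma-voom and the fits without secondary disease replicate 1, spleen doxycycline replicate 1 or spleen doxycycline replicate 3. The difference of the doxycycline effect between spleen and bone marrow was 2.71 ± 0.51 with an adjusted p of 0.0956. It passed in 8 of 24 alternatives. Among them were DESeq2 (1 of the 33 genes higher, 0.811% of all genes tested), limma-voom (1, and 0.0554%), a replicate block and a fit of only the groups compared. It also passed without secondary disease replicate 4, spleen doxycycline replicate 2 or spleen doxycycline replicate 3. Of the 33 genes, 0 were called in that interaction in either direction, beside 0.0277% and 0.0208% of all genes tested. At an unadjusted p under 0.05, 2 were higher and 0 lower (share of all genes not given here).

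Atp2b4 (ENSMUSG00000026463, GRCm38 chr1:133699457-133801041, minus strand), a plasma membrane calcium pump, had 87.5, 151 and 61.2 CPM in bone marrow doxycycline, against 55.1, 61.5 and 94.3 CPM in bone marrow control, which overlapped (0.51 ± 0.80; adjusted p = 0.794). The spleen libraries had 9.69, 7.62, 8.28 and 31.8 CPM in secondary disease, 73.6, 609 and 35 CPM in spleen doxycycline and 101, 102 and 109.7 CPM in spleen control. Secondary disease was below every other spleen library, replicates 1 to 3 by far the most, and spleen doxycycline ranged from below to above the controls. Secondary disease was lower than spleen doxycycline (-4.08 ± 0.81; adjusted p = 0.0336), in 9 of 24 alternatives. Its difference from spleen control missed the threshold (-2.88 ± 0.78; adjusted p = 0.0832), and passed in 8 of 24 alternatives. Among them were DESeq2, a replicate block, a fit of only the groups compared, and fits without secondary disease replicate 4 or any 1 of the spleen doxycycline libraries. Aqp1, the water channel of red cells, was barely detected, at 0, 5.86 and 0.0395 CPM in bone marrow doxycycline and 0.163, 0 and 6.56 CPM in bone marrow control; the floor of 3 counts was 0.0737 to 0.26 CPM per library.

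Among the enzymes, Bpgm (ENSMUSG00000038871, GRCm38 chr6:34476207-34505613, plus strand), which makes bisphosphoglycerate and so lowers the oxygen affinity of haemoglobin, had the smallest p of the genes that rose in both tissues. It had 198, 214 and 250 CPM in bone marrow doxycycline, against 45.3, 41.7 and 45.2 CPM in bone marrow control (2.32 ± 0.38; adjusted p = 0.00643). Its spleen values were 39.4, 45.5, 51.6 and 56.5 CPM in secondary disease, 46.1, 226 and 165 CPM in spleen doxycycline and 31.1, 30.4 and 32.7 CPM in spleen control. Every doxycycline-treated library, secondary disease included, lay above every spleen control. Bpgm rose in spleen doxycycline (2.21 ± 0.38; adjusted p = 0.0365), and secondary disease was lower than spleen doxycycline (-1.59 ± 0.34; adjusted p = 0.0452; called in 5 of 24 alternatives).

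Blvrb (ENSMUSG00000040466, GRCm38 chr7:27447978-27466144, plus strand), the biliverdin reductase that also reduces flavins in red cells, had 647, 791 and 766 CPM in bone marrow doxycycline, against 279.6, 322 and 277 CPM in bone marrow control, and rose (1.33 ± 0.25; adjusted p = 0.0121). In spleen it had 224, 297, 253 and 354 CPM in secondary disease, 385, 859 and 485 CPM in spleen doxycycline and 218, 271 and 242 CPM in spleen control. The 3 spleen doxycycline libraries exceeded the controls, replicate 1 included, and Blvrb rose there (1.24 ± 0.25; adjusted p = 0.0451). Secondary disease overlapped the spleen controls.

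Prdx2 (ENSMUSG00000005161, GRCm38 chr8:84969587-84974834, plus strand), the abundant peroxidase of red cells, had 1150, 1223 and 1421 CPM in bone marrow doxycycline, against 505, 612 and 534 CPM in bone marrow control, and rose (1.20 ± 0.30; adjusted p = 0.0315). The spleen libraries had 455, 509.8, 491 and 674 CPM in secondary disease, 598, 1882 and 1056 CPM in spleen doxycycline and 455, 530.2 and 485 CPM in spleen control. All 3 spleen doxycycline libraries exceeded the controls without passing (1.27 ± 0.30; adjusted p = 0.0662). The difference passed in 5 of 24 alternatives, among them DESeq2 and the fits without spleen doxycycline replicate 1 or secondary disease replicate 4. Exons of Prdx2 overlap Rnaseh2a and Junb on the opposite strand.

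Pklr (ENSMUSG00000041237, GRCm38 chr3:89136142-89146784, plus strand), the pyruvate kinase of liver and red cells, was close to absent without doxycycline. It had 41.8, 21.2 and 46.8 CPM in bone marrow doxycycline, against 0.0408, 0 and 0.383 CPM in bone marrow control, where the 3 controls held 10 counts together. The pooled ratio was 274 (95% exact interval 149 to 572, which covers counting error only), and Pklr rose (adjusted p = 0.0421). With so few control counts, it passed the filter on low counts through other groups, and a fall could not have been called. Its spleen values were 6.58, 11.2, 11.8 and 0 CPM in secondary disease, 0, 438 and 62.7 CPM in spleen doxycycline and 0.044, 0.172 and 0.0736 CPM in spleen control. Replicates 1 to 3 of secondary disease and replicates 2 and 3 of spleen doxycycline were above the controls, and spleen doxycycline replicate 1 and secondary disease replicate 4 held 0 counts. Neither spleen comparison passed (adjusted p = 0.053 for spleen doxycycline, 0.171 for secondary disease). They passed in 5 of 23 and 3 of 24 alternatives, in both cases with DESeq2 and without spleen doxycycline replicate 1. Pkm, the widely expressed pyruvate kinase, had 605 ± 26.2 TPM in bone marrow doxycycline and 733 ± 85.4 TPM in bone marrow control, so that Pklr at 16.1 ± 5.23 TPM stayed far below it in level. Exons of Pklr overlap Hcn3 on the opposite strand.

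Car2, a carbonic anhydrase, was the most abundant of the 33 genes per transcript length, with a mean of 2044 TPM over the 16 libraries, followed by Prdx2 at 803 TPM and Blvrb at 627 TPM. It had 3064, 3360 and 3484 CPM in bone marrow doxycycline, against 2335, 3010 and 2426 CPM in bone marrow control. All 3 doxycycline libraries were above the controls by a small margin and did not pass (0.35 ± 0.29; adjusted p = 0.555). In spleen Car2 had 2235, 2351, 2243 and 1413 CPM in secondary disease, 1758, 4917 and 3970 CPM in spleen doxycycline and 1866, 2062 and 1865 CPM in spleen control, with 2 of 3 doxycycline libraries above the controls and 1 below (0.88 ± 0.29; adjusted p = 0.187). Car1, its paralogue, averaged 572 ± 133 CPM in bone marrow doxycycline and 324 ± 39.4 CPM in bone marrow control, and in spleen doxycycline replicates 1 to 3 it had 78.9, 149 and 498 CPM against 281, 278 and 269 CPM in spleen control. Replicates 1 and 2 were below the controls and replicate 3 above them, although replicate 2 had the highest median over the 33 genes. Cat, which encodes catalase, averaged 155 ± 11.6 CPM against 101 ± 12.9 CPM in bone marrow (0.62 ± 0.23; adjusted p = 0.127).

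**Figure D3:**
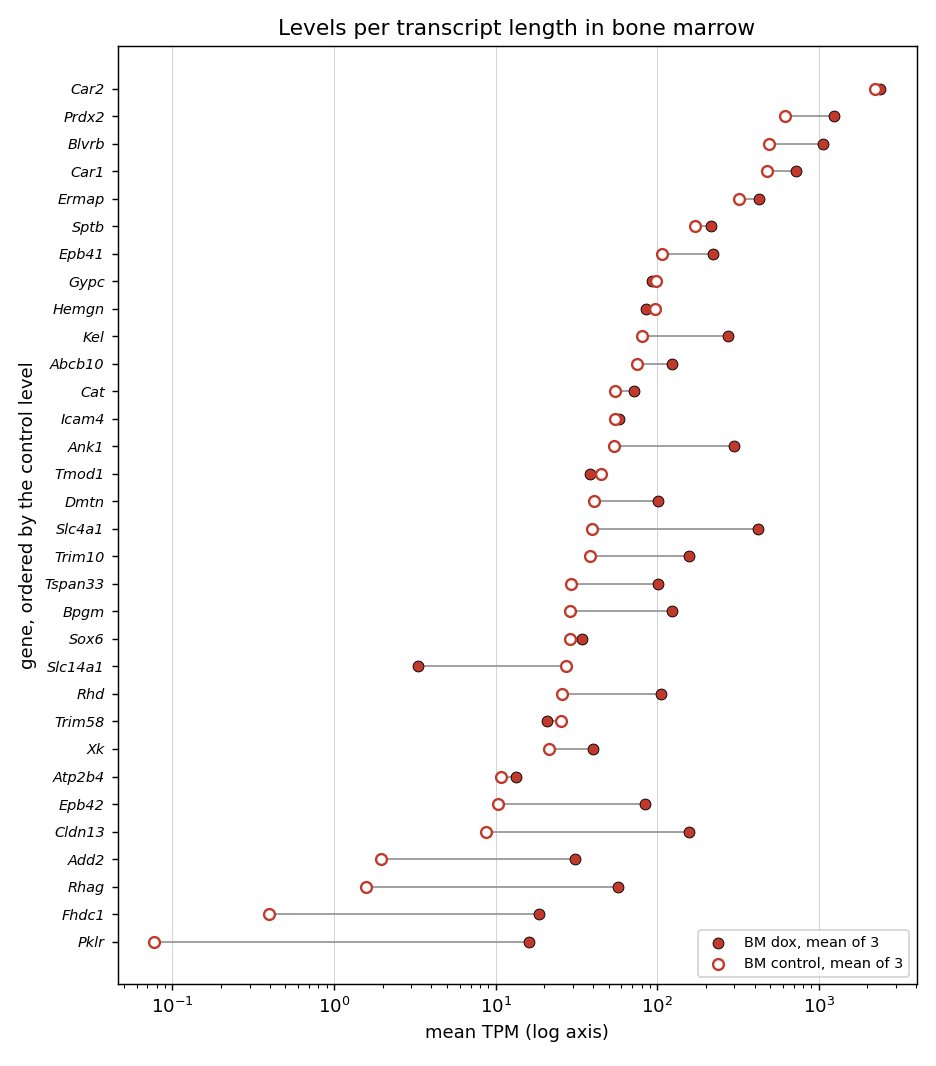
Mean TPM (log axis) in bone marrow doxycycline (filled points, n = 3) and bone marrow control (open points, n = 3) for 32 of the 33 genes, ordered by the control level and without the barely detected Aqp1. The lines are long for genes near the bottom, such as Pklr, Fhdc1, Rhag and Add2, and short for Car2 and Gypc; Slc14a1 is the gene whose filled point lies far to the left.

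Levels in TPM showed where each gene started. In bone marrow control cells the 33 genes ran from 0.0767 TPM in Pklr to 2214 TPM in Car2. Epb41, Sptb, Ermap, Car1, Blvrb, Prdx2 and Car2 were the highest there, from 106.5 TPM in Epb41 upward, and Blvrb and Prdx2 were the ones among them that rose. Pklr, Fhdc1, Aqp1, Rhag and Add2 were the lowest, up to 1.94 TPM in Add2, and all of them but Aqp1 rose. For Pklr, with 10 counts in these controls, a rise was the only direction that could be called.

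Abcb10, a mitochondrial transporter needed for haem synthesis, averaged 457 ± 40.7 CPM in bone marrow doxycycline and 238 ± 14.4 CPM in bone marrow control, and did not pass (0.94 ± 0.34; adjusted p = 0.12). It passed in 5 of 24 alternatives, and its doxycycline and control libraries did not overlap.

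Among the nuclear and other factors, Trim10 (ENSMUSG00000073400, GRCm38 chr17:36869574-36877833, plus strand), a RING-finger protein needed for terminal erythroid differentiation in mouse cells, had 267, 279 and 309 CPM in bone marrow doxycycline, against 62.4, 53.7 and 63.2 CPM in bone marrow control, and rose (2.25 ± 0.50; adjusted p = 0.0201). In spleen it had 46.2, 65.8, 66.1 and 30.7 CPM in secondary disease, 70.8, 537 and 237 CPM in spleen doxycycline and 43.5, 52.8 and 50.1 CPM in spleen control. The 3 spleen doxycycline libraries were above the controls, and Trim10 rose (2.53 ± 0.51; adjusted p = 0.0451). Secondary disease overlapped the controls and was lower than spleen doxycycline (-2.43 ± 0.45; adjusted p = 0.0282; called in 11 of 24 alternatives).

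Fhdc1 (ENSMUSG00000041842, GRCm38 chr3:84442198-84480429, minus strand), a formin-family protein of actin and microtubules, had 68.3, 82.7 and 75.2 CPM in bone marrow doxycycline, against 0.612, 0.75 and 2.6 CPM in bone marrow control, and rose (5.84 ± 1.16; adjusted p = 0.0138). The spleen libraries had 5.55, 5.24, 9.99 and 2.95 CPM in secondary disease, 1.09, 131 and 34.4 CPM in spleen doxycycline and 0.836, 0.773 and 0.687 CPM in spleen control. All 4 secondary disease libraries and all 3 spleen doxycycline libraries were above every spleen control, replicate 1 of spleen doxycycline by the least. Fhdc1 rose in spleen doxycycline (6.18 ± 1.20; adjusted p = 0.045). Its difference in secondary disease did not pass (2.97 ± 1.05; adjusted p = 0.179). It was called there in 4 of 24 alternatives, among them DESeq2, a fit of only the groups compared, and the fit without spleen doxycycline replicate 1.

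The other factors did not pass in bone marrow or in spleen. Hemgn, a nuclear protein of haematopoietic cells, averaged 163 ± 33.3 CPM in bone marrow doxycycline and 156 ± 17.4 CPM in bone marrow control. Trim58, a ubiquitin ligase that acts when mouse erythroblasts lose their nucleus, averaged 36.6 ± 2.36 and 37.7 ± 8.56 CPM, and Sox6, which silences embryonic globin in mouse, 191 ± 17.6 and 124 ± 18.6 CPM. The groups overlapped in Hemgn and Trim58 and did not overlap in Sox6. In spleen Hemgn had 114, 663 and 197 CPM in doxycycline replicates 1 to 3, against 106, 117 and 111 CPM in spleen control, so that replicate 2 was far above the controls and replicate 1 within them.

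**Figure D4:**
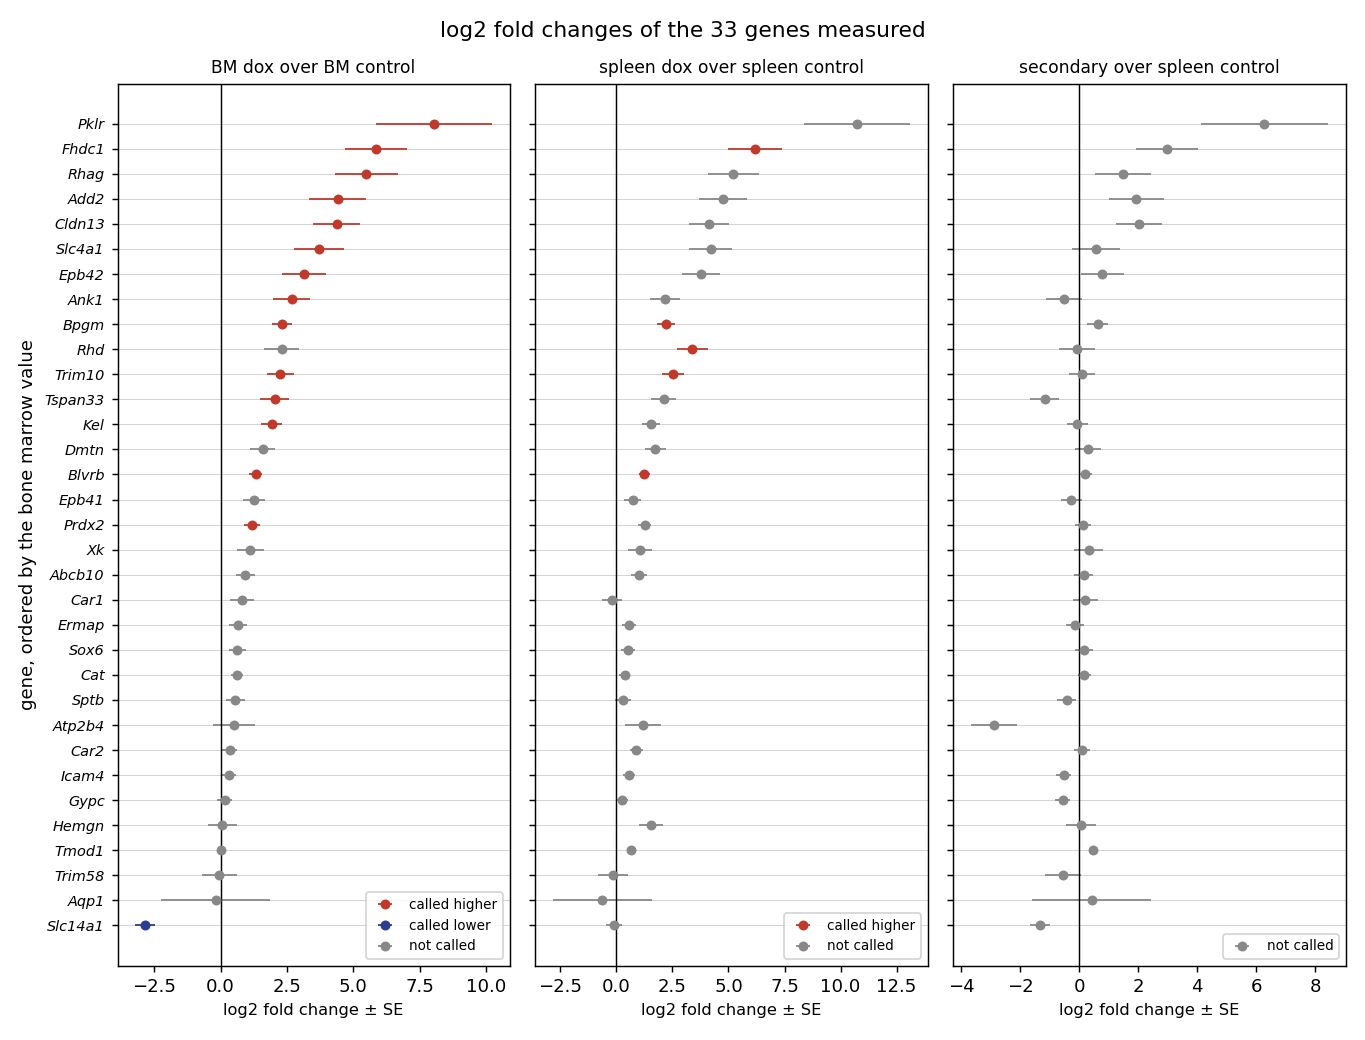
Log2 fold changes with standard errors for the 33 genes in 3 comparisons, ordered by the bone marrow value; coloured points passed at an adjusted p under 0.05, and the 3 panels have different scales. In bone marrow 14 genes lie to the right and Slc14a1 to the left with a call, in spleen doxycycline 5 carry a call, and in secondary disease 0 do; the fitted value of Pklr, whose controls hold few counts, depends on the prior count.

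Counted by role, 3 of 7 skeleton genes, 5 of 10 surface genes, 0 of 3 transport genes, 4 of 7 enzymes, 0 of 1 haem partner and 2 of 5 other factors rose in bone marrow, beside 3.96% of all genes tested. In spleen the counts were 0, 1, 0, 2, 0 and 2 in the same order, beside 0.568% of all genes tested. With so few genes per role, a count of 0 says little, and roles were not tested against each other. Comparisons that share control libraries are not independent, and the 2 spleen comparisons share theirs. In secondary disease against spleen control, 7 of the 33 genes had every secondary disease library above every control (Add2, Tmod1, Dmtn, Rhag, Cldn13, Bpgm and Fhdc1; 8.85% of all genes tested) and 7 had every one below (Sptb, Ank1, Gypc, Icam4, Tspan33, Slc14a1 and Atp2b4; 12.4% of all genes tested). Against spleen doxycycline, 9 of the 33 genes had every secondary disease library below every spleen doxycycline library, and 0 above, where 4.16% and 3.08% of all genes tested did.

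The rest of the red cell programme was given by lists of genes that are not among the 34. In bone marrow, 4 of 7 haemoglobin genes rose, among them Hba-a1 (3.22 ± 0.50; adjusted p = 0.00552), and 8 of 11 haem synthesis genes, among them Alas2, the first enzyme of the pathway in erythroid cells (4.77 ± 0.87; adjusted p = 0.0101). Of 11 iron genes 4 rose, among them the ferritin chains Fth1 (1.14 ± 0.20; adjusted p = 0.00748) and Ftl1 (1.46 ± 0.28; adjusted p = 0.0123), and of 15 erythroid regulators 5 rose, with Nfe2 (1.14 ± 0.19; adjusted p = 0.00667) and Lyl1 (0.89 ± 0.17; adjusted p = 0.0123) having the smallest p. None of these genes fell. Of 20 other red cell membrane genes tested 6 rose, among them Mpp1 (2.58 ± 0.50; adjusted p = 0.0123) and Stom (4.32 ± 0.88; adjusted p = 0.0146), and of 19 other red cell enzyme genes 2 rose, Cyb5r3 (1.18 ± 0.25; adjusted p = 0.0169) and Gss (1.00 ± 0.26; adjusted p = 0.0356). Median log2 fold changes were 3.22, 1.43, 1.45, 0.61, 0.33 and 0.32 in the order given. Of all genes tested, 3.96% rose and 2.61% fell in this comparison, and no list was tested against these shares.

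Of 18 widely expressed paralogues of the 33 genes, 0 rose and 2 fell in bone marrow, beside 3.96% and 2.61% of all genes tested. The 2 were Epb41l2 (-0.70 ± 0.19; adjusted p = 0.0447) and Sptan1, a spectrin of non-erythroid cells (-1.96 ± 0.54; adjusted p = 0.0456), with a list median of -0.35. Means of single paralogues went both ways. Atp2b1 had 119.9 ± 1.78 CPM in bone marrow doxycycline and 39.9 ± 1.87 CPM in bone marrow control, and Add1 458.8 ± 6.77 and 324.8 ± 44.8 CPM. Sptbn1 had 193.4 ± 8.77 and 352.5 ± 15.2 CPM in the same order, and Prdx1 130.6 ± 20.5 and 223.1 ± 46.5 CPM. In spleen, the counts that rose were 3 of 7 haemoglobin, 2 of 11 haem synthesis, 0 of 11 iron, 1 of 15 regulator, 2 of 20 other membrane and 1 of 19 other enzyme genes, with medians of 2.87, 1.47, 0.76, 0.32, 0.3 and 0.2. Of all genes tested, 0.568% rose there. The smallest p in each were Hba-a2 (3.52 ± 0.67), Uros (2.68 ± 0.50), Slc25a37 (3.76 ± 0.88, not passed), Gfi1b (0.67 ± 0.14), Art4 (4.51 ± 0.94) and Gpx1 (1.23 ± 0.18), as log2 fold changes. In secondary disease against spleen control 1 regulator, Gfi1b (0.68 ± 0.13; adjusted p = 0.0151), was higher and 1 haemoglobin gene, the embryonic Hbb-y (-6.49 ± 1.31; adjusted p = 0.0214), was lower, while the haem synthesis, iron, other membrane, other enzyme and paralogue lists had 0 calls. Of all genes tested, 0.748% were higher and 1.28% lower there, so lists this short with 0 or 1 call say little. Against spleen doxycycline, secondary disease had 3 haemoglobin, 4 haem synthesis, 0 iron, 1 regulator, 1 other membrane and 1 other enzyme gene lower and none higher, beside 0.707% and 0.222% of all genes tested.

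Markers of other cell types, which sorting for GFP should leave out unless they carry it, also differed between groups. In bone marrow, 3.96% of all genes tested rose and 2.61% fell, the shares to set beside each count of calls. No marker list was tested against these shares. Summed macrophage and erythroblastic island markers ran from 77.2 to 117 CPM in bone marrow doxycycline and from 32.0 to 56.1 CPM in bone marrow control, and 1 of the 15 tested rose, Hmox1, the haem-degrading oxygenase, which erythroid cells also express. Most of the difference lay in Hmox1 and in the iron exporter Slc40a1, which also stands in the iron list; they averaged 26.4 and 37.1 CPM in bone marrow doxycycline and 6.71 and 6.36 CPM in bone marrow control. Of the 16 markers in the table, 8 had a higher and 8 a lower mean in bone marrow doxycycline. In Hmox1, Slc40a1 and Mertk, 3 of the 16 markers, the groups did not overlap, where 23.1% of all genes tested were higher without overlap. Mertk, a receptor for the uptake of dying cells, ran from 0.395 to 0.994 CPM in bone marrow doxycycline and from 0.0715 to 0.383 CPM in bone marrow control, close to the counting floor. The complement gene C1qa averaged 3.3 and 3.02 CPM in the same order. Adgre1, the F4/80 antigen of macrophages, averaged 1.74 CPM in bone marrow doxycycline and 1.98 CPM in bone marrow control, and Marco reached at most 1 count in any bone marrow library. Megakaryocyte and platelet markers ran from 350.8 to 387 CPM in bone marrow doxycycline and from 779 to 943 CPM in bone marrow control, with 3 of 8 tested lower, among them Gp1bb (-6.29 ± 1.18; adjusted p = 0.0115). Of 12 such markers in the table, 10 had a lower mean in bone marrow doxycycline, 5 of them without overlap (24.6% of all genes tested). Gp9 was higher without overlap. Itga2b, the platelet integrin chain, made up much of that sum, while the platelet gene Ppbp reached at most 2 counts in any bone marrow library. Neutrophil markers ran from 363 to 728 CPM in bone marrow doxycycline and from 987 to 1468 CPM in bone marrow control. None of the 14 tested was called, though 15 of 15 in the table had a lower mean in bone marrow doxycycline. In 13 of them the groups did not overlap, where 24.6% of all genes tested were lower without overlap. B and plasma cell markers (1 of 13 rose, Blnk) ran from 45.5 to 70.7 CPM in bone marrow doxycycline and from 28.7 to 76.8 CPM in bone marrow control, and T and NK cell markers (0 of 9 called) from 6.57 to 11.4 CPM and from 7.79 to 20.1 CPM in the same order.

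In spleen, macrophage markers summed to 26.3 to 125 CPM in secondary disease, to 34.04, 151.5 and 90.3 CPM in spleen doxycycline replicates 1 to 3, and to 20.4 to 41.6 CPM in spleen control. Megakaryocyte markers summed to 706 to 909 CPM in secondary disease, to 1287, 98.2 and 601 CPM in spleen doxycycline replicates 1 to 3, and to 736 to 828.5 CPM in spleen control. Replicate 2 of spleen doxycycline, the library with the highest median over the 33 genes, had the lowest megakaryocyte and the highest macrophage sum of that group. The macrophage sum includes Hmox1 and Slc40a1, so it is not separate from erythroid RNA. Slc40a1 had the smallest p of that list in spleen doxycycline (3.58 ± 0.89, not passed). Of the 16 macrophage markers 15 had a higher mean in spleen doxycycline and 1 a lower, with 1 higher without overlap, Adgre1 (9.34% of all genes tested). Neutrophil markers summed to 2.81 to 64.6 CPM in secondary disease, 17.98 to 178 CPM in spleen doxycycline and 61.2 to 189.5 CPM in spleen control. B and plasma cell markers summed to 39.0 to 94.9 CPM in secondary disease, 51.2 to 152 CPM in spleen doxycycline and 20.3 to 28.4 CPM in spleen control, and T and NK cell markers to 5.23 to 23.1, 8.79 to 16.5 and 11.2 to 12.9 CPM in the same order. Of 14 B and plasma cell markers, 13 had a higher mean in spleen doxycycline than in spleen control, 6 without overlap (9.34% of all genes tested). Cd79a was lower without overlap (10.7%). In spleen doxycycline against spleen control, Cd37 of the B cell list rose and Itgb3 of the megakaryocyte list fell (0.568% and 0.173% of all genes tested). In secondary disease against spleen control, Cd37 rose and Itgb3 and the neutrophil gene Chil3 fell (0.748% and 1.28% of all genes tested). The part of these cells in the differences of the 33 genes was not tested.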

How the data were processed

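RNA was extracted with TRIzol and made into libraries with the NEBNext Ultra II kit after oligo-dT capture, per the labels' protocols. Trim Galore, FastQC, MultiQC, STAR, RSEM and the GRCm38 build are named in the submitters' processing notes, without versions, and whether counting kept strand is not stated there. The authors deposited a table of expected counts per gene, 5.8 to 10.8% of them not whole, and per-sample TPM values, which are scaled by transcript length and by depth. Each of the 16 TPM columns correlated best with its own column of expected counts. Totals were 12.26 M to 39.42 M expected counts per library.

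Expected counts were rounded and fitted with edgeR 4.0.16 in R 4.3.3 (TMM scaling, filterByExpr, robust quasi-likelihood test), with all 16 libraries, 1 mean per group and Benjamini-Hochberg adjustment over 14435 genes; a call is an adjusted p under 0.05. The standard error of a fold change was taken from the F statistic, and so rests on the spread shared by all groups. DESeq2 1.42.0 and limma-voom 3.58.1, other filters and scalings, a replicate block and each left-out library were alternatives. The block joined same-numbered libraries over all 5 groups, which no label ties together. Secondary disease replicate 4 had a block of its own, so that setting in effect left it out. The fitting was tested on simulated data. Tables and plots used Python 3.11.15, pandas 2.3.3, numpy 2.4.6 and matplotlib 3.10.9. The counting floor was 3 counts per library, and intervals cover counting error only. No label ties libraries to separate animals, so the spread that a p-value rests on may be partly technical.

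The members, gene lists and tests were chosen with earlier results of these data known. Values in every library were given for the 6 members with the smallest p in each of the bone marrow, spleen and secondary disease comparisons with controls, for members called in the interaction, called in secondary disease against spleen doxycycline or called lower anywhere, and for the 3 of highest mean TPM. Other members were given by mean or range, and the 2 genes of smallest p were named from each other list; 1 gene of the other red cell membrane list is not reported here and was left out of that list. A gene was called early when it rose at 7 days in either tissue, and late when it rose only in secondary disease. Promoter windows came from RefSeq, and gene loci and exon overlaps from GENCODE M21, both on GRCm38.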

Additional observations from a re-analysis of the deposited data

Results flagged for a closer look

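In the 4 secondary disease libraries, 1 library stood beyond Dixon's 95% critical value in 15 of the 33 genes checked, where chance flags about 1 in 20 groups. In 14 of these the library was replicate 4, the shallowest of the series, which was low in 11 and high in 3. Among membrane skeleton genes it was low in Sptb (504.5 CPM), Ank1 (87.2 CPM), Epb41 (141 CPM) and Epb42 (4.42 CPM), and high in the adducin gene Add2 (58.5 CPM) and in Dmtn (129.9 CPM). Among surface genes it was low in Gypc (65.8 CPM), Xk (26.1 CPM) and Ermap (299.8 CPM). It was high in the calcium pump gene Atp2b4 (31.8 CPM) and low in the carbonic anhydrase gene Car2 (1413 CPM). Among nuclear and other factors it was low in Hemgn (36.4 CPM), Trim58 (1.21 CPM) and Sox6 (74.0 CPM). The remaining gene was Aqp1, where replicate 1 had 2.69 CPM and the other 3 libraries were at 0 counts. Genes of 1 library share its depth and preparation, so these flags are not independent of each other.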

How the results depend on the processing

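Each count is followed by the share of all genes tested that the same setting called in that direction. The bone marrow count of 14 genes higher (3.96%) was 5 with no filter on low counts (0.84%), 25 in a fit of only the groups compared (17.9%), 23 with spleen doxycycline replicate 1 and secondary disease replicate 4 both left out (13.9%), and 0 to 19 with each library left out (0.134 to 9.06%); the count of 1 lower was 1 throughout. The spleen count of 5 higher (0.568%) was 0 with no filter (0.0318%), 9 with a replicate block (1.5%), 0 with only the groups compared (0%), 17 with DESeq2 (3.47%), 2 with limma-voom (0.201%), 25 with both libraries out (11.9%) and 0 to 21 with each left out (0 to 4.5%). The interaction's 0 higher (0.0277%) was 1 with the replicate block (0.132%), only the groups compared (0.0778%), DESeq2 (0.811%) and limma-voom (0.0554%), 2 with both libraries out (1.25%) and 0 to 1 with each left out (0 to 2.74%), and its 0 lower was 0 to 2 with each left out (0 to 1.58%). Secondary disease against spleen control had 0 higher (0.748%), which was 2 with only the groups compared (1.1%), 3 with DESeq2 (2.43%), 4 with both libraries out (2.86%) and 0 to 4 with each left out (0.0995 to 1.37%). Its 0 lower (1.28%) was 1 with the replicate block (2.03%), 2 with only the groups compared (1.97%), 2 with DESeq2 (2.81%), 1 with limma-voom (1.82%), 2 with both out (5.24%) and 0 to 2 with each left out (0.305 to 2.52%). Secondary disease against spleen doxycycline had 6 lower (0.707%), which was 1 with no filter (0.0671%), 0 with only the groups compared (0%), 18 with DESeq2 (3.73%), 1 with limma-voom (0.229%), 25 with both out (10.2%) and 0 to 22 with each left out (0 to 4.91%), and 0 higher, which was 0 to 1 with each left out (0 to 4.04%). The cause of these shifts was not tested.

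Log2 fold changes that turned sign were small in most cases. With each library left out, Tmod1 ran from -0.0454 to 0.0861 in bone marrow and from -0.255 to 0.0529 in secondary disease against spleen doxycycline, Rhd from -0.46 to 1.59 in the interaction, Slc14a1 from -0.57 to 0.18 and Atp2b4 from -0.94 to 1.71 in spleen doxycycline against control. In secondary disease against spleen control, Rhd ran from -0.247 to 0.0558 (0.16 with the replicate block, 0.055 with both libraries out), Kel from -0.184 to 0.0393 (0.0531 and 0.0391), Prdx2 from -0.0149 to 0.177 (-0.0119 and -0.015) and Trim10 from -0.0346 to 0.28.

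Correlations of same-numbered libraries ran from -0.339 to 0.173, with a mean of -0.04, against 0.019 for different numbers, but most of these pairs join different treatments or cohorts. For same-numbered bone marrow and spleen libraries of one treatment, they ran from -0.108 to 0.148 in control and from -0.095 to 0.084 in doxycycline. So few values cannot tell whether those libraries came from the same animals. Limits of the data are 3 or 4 libraries a group, 1 shallow library, counts that may not keep strand, and spleen doxycycline libraries that differ from each other in haemoglobin RNA.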

Other observations

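Aqp1 was above 1 CPM in 3 libraries of 3 groups, bone marrow doxycycline replicate 2 (5.86 CPM), bone marrow control replicate 3 (6.56 CPM) and secondary disease replicate 1 (2.69 CPM). Markers of 2 other cell types were looked up after these values were seen. The eosinophil granule genes Epx and Prg2 stood at 5.19 and 13.6 CPM, 8.56 and 23.8 CPM, and 1.04 and 2.77 CPM in the same 3 libraries. Prg2 also had 11.01 CPM in spleen doxycycline replicate 1 and 4.81 to 6.01 CPM in the 3 spleen controls, where Epx was at 0. The endothelial genes Kdr and Pecam1 stood at 47.98 and 2.06 CPM, 93.7 and 1.06 CPM, and 70.2 and 1.28 CPM in the 3 libraries, each the highest of its group, and beyond them Kdr ran from 6.9 to 58.4 CPM and Pecam1 from 0.0963 to 1.09 CPM. Cdh5 and Emcn, also endothelial, held 0 to 3 counts in the 3 libraries and were highest in secondary disease replicate 4, with 5 and 9 counts. The source of the Aqp1 counts was not tested.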
